A study of Homo sapiens with 7 samples.

Results

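The mRNAs of 47 DNA replication and S-phase genes were followed in NCI-H520, a long-established cell line grown from a human lung squamous carcinoma, after silencing of single deadenylases, the enzymes that shorten the poly(A) tail of mRNA. The genes were chosen by symbol from what is known of their function. That rule uses no measured value, but earlier results of these data were known when the list was made. All 47 were among the 19039 genes that could be named on the arrays, and all 47 were above background on each of the 7 arrays. They were measured by 59 probes, 36 genes by 1 probe, 10 by 2 probes and 1 (PRIM2) by 3 probes, and the brightest probe stood for the gene.

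Each group was 1 sample on 1 single-colour Agilent array: cells given empty pLKO.1 vector, cells given a non-target shRNA, and cells given a pLKO.1 plasmid with an shRNA against PARN, CNOT6, CNOT6L, CNOT7 or NOC (nocturnin, gene symbol NOCT). The 7 groups shared the host line, 6 µg of plasmid, puromycin at 6 µg/mL from 12 h and harvest at 72 h, so the controls had also been transfected and selected. Untransfected cells were not analysed here. The labels name 1 and the same target transcript, that of NOC, for the CNOT6L and the NOC plasmid, which leaves the CNOT6L shRNA sequence in doubt. Slide row 1 carried both controls with PARN and CNOT6 shRNA, and slide row 2 carried the CNOT6L, CNOT7 and NOC shRNAs without a control. Slide row and silencing therefore cannot be told apart for the shRNAs of row 2.

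The targeted mRNA stood below the mean of both controls on the array of its own shRNA, by 1.13 log2 units for PARN, 0.88 for CNOT7, 0.67 for CNOT6L, 0.43 for NOCT and 0.16 for CNOT6, against control gaps of 0.19, 0.08, 0.07, 0.41 and 0.10. The differences of NOCT and CNOT6 were thus little larger than the gap between the controls. NOCT and CNOT6L were each read from 1 spot. The scaled log2 level of NOCT, as defined below, was low, from -4.96 to -4.32, though above background on all 7 arrays. CNOT6L and CNOT7 had 2 probes each, of which only the brighter is given. NOCT was also 0.36 below the control mean with CNOT7 shRNA, and PARN 0.38 below it with CNOT6L shRNA, so the lower NOCT level was hardly particular to its own shRNA. Of 11 squamous and epithelial markers, 7 were above background on all arrays, while TP63, KRT5, KRT14 and DSG3, which define basal squamous cells, were not. The summed scaled signal of all 11 ran from 131 to 140 in the controls and from 115 to 160 with shRNAs. KRT18, SOX2, EPCAM and KRT8 were the brightest of the 11 and made up most of that sum. Of 3 lung adenocarcinoma markers, NKX2-1 and NAPSA were above background on all arrays and SFTPB was not. The sum of these 3 ran from 0.697 to 0.754 in the controls and from 0.670 to 0.849 with shRNAs. All 4 leukocyte, 3 fibroblast and 3 endothelial markers were also above background, with summed signals of 7.70 to 14.8, 0.163 to 0.204 and 0.111 to 0.228 over the 7 arrays, the leukocyte sum being lowest with non-target shRNA. The part of these markers in the results was not tested. Between 82.0% and 91.5% of 42405 gene probes were above background per array.

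Chromosomes are copied once per cell cycle. Origins are licensed in G1 when ORC, CDC6 and CDT1 load the MCM helicase, and in S phase CDC45 and GINS turn it on, primase starts new strands, the PCNA clamp holds the polymerases and RPA covers single-stranded DNA. Many of these genes are transcribed at the start of S phase under E2F factors, which cyclin E and CDK2 release from the retinoblastoma protein, and their mRNAs are widely used to judge how strongly a tumour culture cycles. In RNA of a whole culture, fewer cells in S phase and less mRNA per S-phase cell cannot be told apart.

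Promoter stretches of 5 genes are shown first, because shared E2F sites are the best known common feature of this family. The 5 do not stand for the whole family, whose shares follow. RefSeq promoter windows (GRCh38.p14, 250 bases before to 50 after the start) were found for 40 of the 47 genes. MCM4, MCM5, GINS4, POLD3, RPA2, RPA3 and CCNE2 had none in the table used. The letters searched on both strands were TTTCCCGC, TTTCGCGC, TTTGCCGC and TTTGGCGC for E2F, whose versions can overlap each other, and CCAAT, the box of the factor NF-Y. Each stretch runs from 200 bases before to 20 after the start, 5′ to 3′ on the strand of the gene, with E2F and CCAAT letters in capitals. All lie on the minus strand, PCNA at chr20:5126603-5126822, PRIM1 at chr12:56752304-56752523, MCM6 at chr2:135876424-135876643, E2F1 at chr20:33686366-33686585 and POLE2 at chr14:49688195-49688414.
PCNA: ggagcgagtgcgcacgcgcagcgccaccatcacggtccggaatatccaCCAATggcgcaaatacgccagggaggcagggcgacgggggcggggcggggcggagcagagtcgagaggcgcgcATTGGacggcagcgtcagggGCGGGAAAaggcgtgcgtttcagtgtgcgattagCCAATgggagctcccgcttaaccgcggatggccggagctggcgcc
PRIM1: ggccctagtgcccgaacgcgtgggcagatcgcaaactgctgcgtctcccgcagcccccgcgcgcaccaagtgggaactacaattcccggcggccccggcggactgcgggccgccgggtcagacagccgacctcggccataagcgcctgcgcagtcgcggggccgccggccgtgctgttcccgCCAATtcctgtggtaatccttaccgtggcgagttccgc
MCM6: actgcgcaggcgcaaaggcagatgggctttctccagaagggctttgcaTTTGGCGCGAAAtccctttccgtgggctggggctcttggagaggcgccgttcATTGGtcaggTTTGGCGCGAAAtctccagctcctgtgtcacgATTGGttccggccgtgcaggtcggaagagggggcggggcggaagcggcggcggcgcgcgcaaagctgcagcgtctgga
E2F1: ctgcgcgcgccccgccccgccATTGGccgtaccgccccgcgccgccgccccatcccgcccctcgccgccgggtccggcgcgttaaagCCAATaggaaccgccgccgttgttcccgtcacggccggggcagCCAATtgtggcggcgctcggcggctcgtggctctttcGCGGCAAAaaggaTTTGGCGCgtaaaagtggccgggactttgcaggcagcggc
POLE2: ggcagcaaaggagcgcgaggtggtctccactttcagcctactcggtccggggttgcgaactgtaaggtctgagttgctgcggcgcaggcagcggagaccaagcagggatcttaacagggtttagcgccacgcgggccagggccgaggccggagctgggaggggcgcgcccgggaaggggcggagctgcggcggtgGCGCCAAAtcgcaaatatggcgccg

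The MCM6 stretch held 4 E2F matches, overlapping in pairs, and 2 CCAAT boxes. PCNA had 1 E2F match and 3 CCAAT boxes, E2F1 had 2 and 3, PRIM1 had 0 and 1, and POLE2 had 1 E2F match across its start and 0 CCAAT boxes. An E2F match was present in the windows of 20 of the 40 genes (50%), against 3.99% of all 27305 genes with a window. CCAAT was present in 25 of 40 (62.5%), against 39.7% of all genes. Of 20 mitosis genes with a window, 2 (10%) held an E2F match and 18 (90%) a CCAAT box. Among the 17 genes that are higher in slide row 2 below, 14 had a window and 5 (35.7%) an E2F match, against 15 of the other 26 (57.7%). ORC6, RPA1 and FEN1, which are reported below but not printed here, had 0 E2F matches in their windows. These letters describe the windows and do not show that a factor was bound.

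Levels are given as log2 processed signal minus the 75th percentile of the array, and a difference of 1 unit is 2-fold. They compare arrays for 1 gene and not genes with each other. The controls lay close together for the replication genes: the absolute gap between empty vector and non-target had a median of 0.10 and a maximum of 0.41 (POLE2), while over 18183 genes that could be called its median was 0.27. For all genes of the brightest of 4 equal signal classes the median gap was 0.15, and for the dimmest 0.80. None of the 47 differed 2-fold between the controls, and 12.9% of all genes did. The replication genes were well expressed, 29 of 47 lying in the brightest class and 0 in the dimmest. Within the brightest class the range over the 7 arrays had a median of 0.38 for replication genes and 0.46 for all genes. Over all 47 the range had a median of 0.44, and it reached 2-fold for 1 gene, POLE2.

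No replication gene was called upon silencing of any deadenylase, where a call means at least 2-fold, in 1 direction, from each of both controls. The count was 0 of 47 for PARN, CNOT6, CNOT6L, CNOT7 and NOC shRNA, while 0.506%, 0.511%, 0.924%, 1.02% and 1.4% of all genes were called. With 1 array per group these calls have no test. At 1.5-fold there was 1 call, POLE2 with PARN shRNA, where 1.82% of all genes were called, and 0 calls with the other shRNAs, where 3.49%, 4.43%, 4.6% and 5.31% were. Smaller differences of the list as a whole were described by counting genes outside both controls and by the median difference from the control mean.

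**Figure D1:**
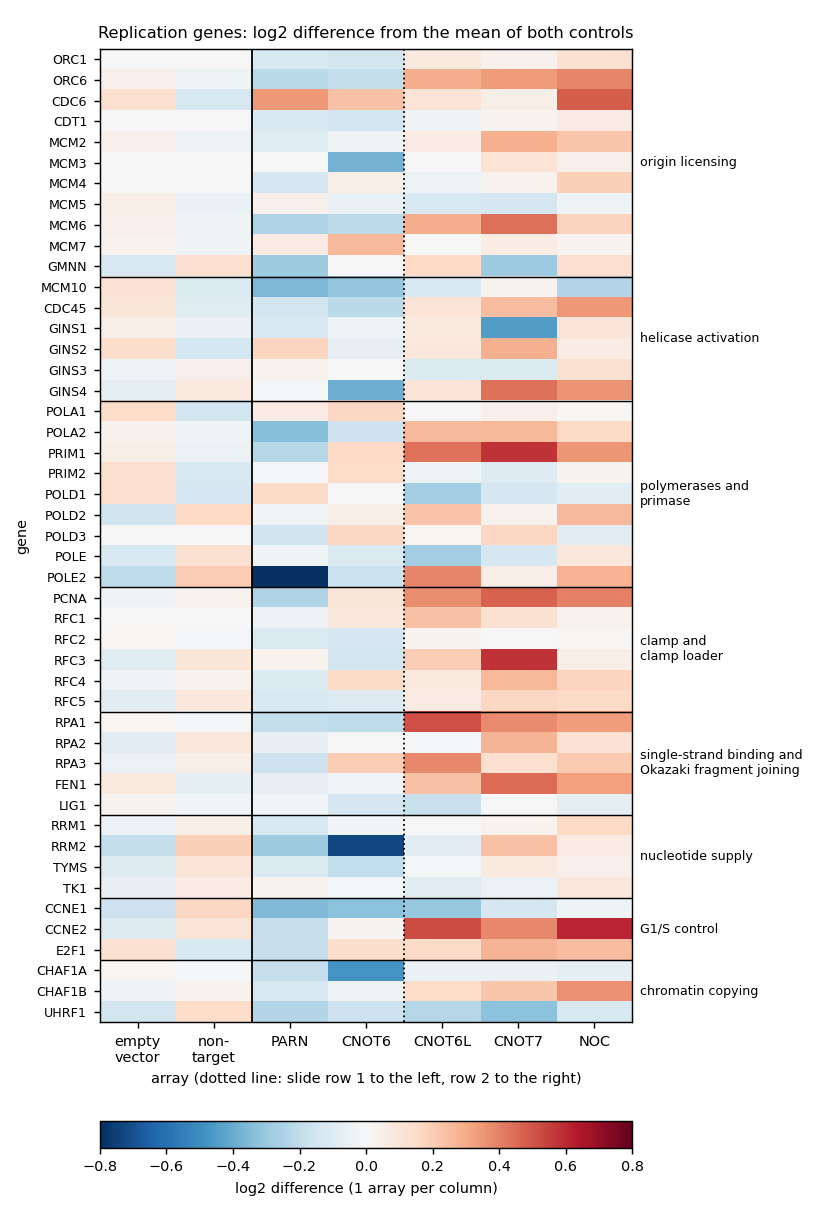
Each row is 1 of the 47 genes, grouped by role, and each column 1 array; colour gives the log2 difference from the mean of both controls, so both control columns are mirror images. Blue prevails with PARN shRNA (31 of 47 lower than both controls), and red with CNOT7 and NOC shRNA (27 and 29 of 47 higher).

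With PARN shRNA most replication mRNAs lay slightly low. Of 47, 31 were lower than both controls and 4 higher (CDC6, MCM7, GINS2 and POLD1), where 32.1% of all genes were lower and 22% higher. The median difference from the control mean was -0.12, against -0.03 for all genes, next to a median control gap of 0.10. PARN shRNA held the lowest of the 7 levels for 19 of the 47 genes, and for 16.3% of all genes. Lower than both controls were 7 of 11 licensing factors, 3 of 6 helicase activators and 4 of 9 polymerase and primase subunits. They were joined by 5 of 6 clamp and loader subunits, 3 of 5 single-strand binding and Okazaki genes and 3 of 4 nucleotide genes. All of the 3 G1/S and 3 chromatin copying genes were lower too. Each role holds few genes, and 32.1% of all genes were lower in the same way. For LIG1, counted among the Okazaki genes, the difference from non-target shRNA was only -0.0002. The count of 31 was between 30 and 33 with quantile normalization, normexp, the series table or the mean over probes. It was 38 or 36 against the non-target or the empty-vector array alone, a rule that more genes meet by construction. The shares of all genes under these settings are not given here. Against the non-target and the empty-vector array alone the medians were -0.13 and -0.10, and those of all genes 0.01 and -0.06.

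POLE2, the second subunit of the leading-strand polymerase epsilon, had the widest range of the family. Its levels were -2.90 and -2.49 with empty vector and non-target shRNA, -3.49 and -2.87 with PARN and CNOT6 shRNA, and -2.30, -2.64 and -2.42 with CNOT6L, CNOT7 and NOC shRNA. The PARN array was the lowest and lay 0.59 below the nearer control, at 57.4% of the control mean. The controls themselves were 0.41 apart. Against the non-target array alone POLE2 passed 2-fold (-1.01), and against empty vector alone it did not (-0.59). POLA2, the accessory subunit of polymerase alpha, read from 1 spot, had levels of -0.41 and -0.48 with empty vector and non-target shRNA, -0.79 and -0.61 with PARN and CNOT6 shRNA, and -0.19, -0.18 and -0.29 with CNOT6L, CNOT7 and NOC shRNA. PARN shRNA was the lowest array, and the 3 arrays of slide row 2 were above both controls. MCM10, which helps CDC45 join the helicase, had levels of -1.64 and -1.87 with empty vector and non-target shRNA, -2.12 and -2.07 with PARN and CNOT6 shRNA, and -1.88, -1.73 and -1.99 with CNOT6L, CNOT7 and NOC shRNA. Both PARN and CNOT6 shRNA lay under the controls, by 0.36 and 0.31 from their mean.

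CDC6, the ATPase that loads MCM rings with ORC, was the clearest exception. Its levels were -2.29 and -2.54 with empty vector and non-target shRNA, -2.07 and -2.18 with PARN and CNOT6 shRNA, and -2.30, -2.37 and -1.93 with CNOT6L, CNOT7 and NOC shRNA. All 5 shRNA arrays were above the control mean, by 0.05 to 0.49, but the CNOT6L and CNOT7 arrays overlapped the controls. GINS2, a subunit of the GINS complex, had levels of 2.11 and 1.82 with empty vector and non-target shRNA, 2.14 and 1.90 with PARN and CNOT6 shRNA, and 2.05, 2.25 and 2.02 with CNOT6L, CNOT7 and NOC shRNA. It was 0.17 above the control mean with PARN shRNA, within a control gap of 0.28. MCM7, a core helicase subunit, had levels of 5.88 and 5.82 with empty vector and non-target shRNA, 5.92 and 6.11 with PARN and CNOT6 shRNA, and 5.86, 5.91 and 5.87 with CNOT6L, CNOT7 and NOC shRNA. The CNOT6 array was highest, yet with quantile normalization its difference of 0.26 turned to -0.10, and the other MCM7 probe was highest with NOC shRNA.

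With CNOT6 shRNA the list was split, 12 genes higher and 21 lower than both controls, with a median of -0.04 against 0.04 for all genes. Of all genes, 34.5% were higher and 28.6% lower. The lowered side held the ribonucleotide reductase subunit RRM2, which limits the making of deoxynucleotides. RRM2 levels were -1.34 and -0.97 with empty vector and non-target shRNA, -1.44 and -1.88 with PARN and CNOT6 shRNA, and -1.24, -0.92 and -1.09 with CNOT6L, CNOT7 and NOC shRNA. The CNOT6 array was lowest at 60.3% of the control mean (-0.73), with controls 0.38 apart. CHAF1A, the large subunit of the histone chaperone CAF-1, had levels of 3.20 and 3.17 with empty vector and non-target shRNA, 3.0 and 2.71 with PARN and CNOT6 shRNA, and 3.13, 3.13 and 3.11 with CNOT6L, CNOT7 and NOC shRNA. It was the only one of the 47 that lay below both controls on all 5 shRNA arrays, where 4.31% of all genes did so, and 0 of the 47 lay above both on all 5, where 2.67% did. The distance was 0.48 with CNOT6 shRNA and only 0.05 to 0.07 in slide row 2, where the series table gave 0.00 to -0.04. On the other CHAF1A probe CNOT6 shRNA was also lowest (-0.47), and the other 4 shRNAs lay at or between control levels of -0.36 and -0.13.

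MCM3, another helicase subunit, had levels of 3.70 and 3.69 with empty vector and non-target shRNA, 3.70 and 3.31 with PARN and CNOT6 shRNA, and 3.69, 3.80 and 3.74 with CNOT6L, CNOT7 and NOC shRNA. CNOT6 shRNA stood alone at 0.38 below controls that were 0.01 apart. GINS4, also of the GINS complex and read from 1 spot, had levels of 0.50 and 0.65 with empty vector and non-target shRNA, 0.56 and 0.19 with PARN and CNOT6 shRNA, and 0.68, 1.02 and 0.94 with CNOT6L, CNOT7 and NOC shRNA. It was lowest with CNOT6 shRNA and higher on all arrays of slide row 2 than on either control. On the upper side, POLD3, a subunit of the lagging-strand polymerase delta, had levels of 1.48 and 1.46 with empty vector and non-target shRNA, 1.31 and 1.64 with PARN and CNOT6 shRNA, and 1.48, 1.63 and 1.39 with CNOT6L, CNOT7 and NOC shRNA. RPA3, the smallest subunit of the single-strand binding complex, had levels of 2.86 and 2.96 with empty vector and non-target shRNA, 2.75 and 3.11 with PARN and CNOT6 shRNA, and 3.29, 3.04 and 3.12 with CNOT6L, CNOT7 and NOC shRNA. Both were above the controls with CNOT6 shRNA, by 0.17 and 0.20, and both were below them with PARN shRNA, by 0.16.

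**Figure D2:**
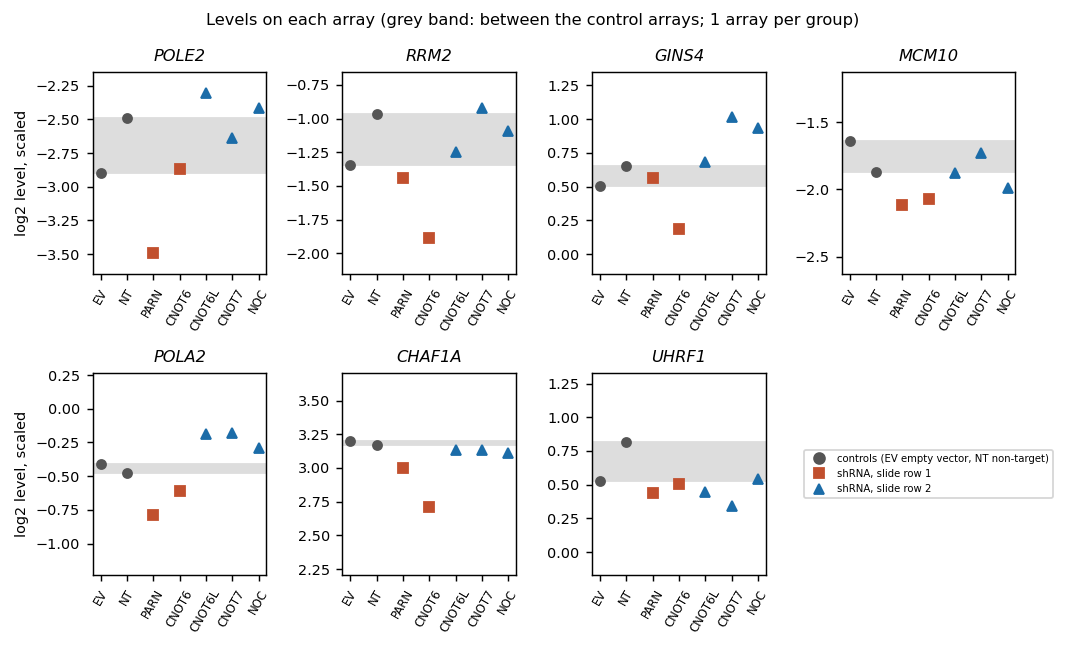
Scaled log2 levels of 7 genes on each array, all panels spanning the same 1.5 log2 units; the grey band joins both controls. POLE2 is lowest with PARN shRNA (-3.49) and RRM2, GINS4 and CHAF1A with CNOT6 shRNA (-1.88, 0.19 and 2.71).

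On the 3 arrays of slide row 2 the replication genes leaned the other way. With CNOT6L shRNA 24 of 47 were higher and 13 lower than both controls, with CNOT7 shRNA 27 and 7, and with NOC shRNA 29 and 4. The shares of all genes higher were 31.1%, 29.3% and 29.7%, and the shares lower 32.7%, 35% and 35.9%. Medians over the 47 were 0.06, 0.08 and 0.12, against 0.00, -0.03 and -0.03 for all genes. These comparisons share the control arrays, so their likeness is no separate evidence. NOC shRNA held the lowest of the 7 levels for 0 of the 47 genes, and for 13.9% of all genes. CNOT7 shRNA held the highest for 15 (31.9%) and NOC shRNA for 13 (27.7%), against 11.45% and 10.74% of all genes.

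All 3 arrays of row 2 were above both controls for 17 of the 47 genes and below both for 1 (CHAF1A), while 18% of all genes were above and 20.6% below. The 17 were ORC1, ORC6, MCM2 and MCM6 of licensing, CDC45 and GINS4 of helicase activation, POLA2 and PRIM1, PCNA, RFC1 and RFC4, RPA1, RPA3 and FEN1, CCNE2 and E2F1, and CHAF1B. The PARN and CNOT6 arrays also carried a deadenylase shRNA but lay in row 1. Over the whole list, 14 of 47 (29.8%) were higher on all arrays of row 2 than on all 4 arrays of row 1, against 12.1% of all genes, and 0 of 47 were lower, against 14.6%. The 14 were all among the 17. The PARN and CNOT6 arrays, set against both controls in the same way, left 2 of the 47 above (CDC6 and MCM7; 11.5% of all genes) and 17 below (15.3%). The genes of the 17 that did not clear all of row 1 were RFC1, RFC4 and RPA3, where the CNOT6 array reached into row 2.

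Tested with limma as 3 arrays against 2 controls, with Benjamini-Hochberg adjustment over 37943 probes, none of the 47 passed 0.05, although 126 probes did (0.0712% higher and 0.261% lower). At an unadjusted p under 0.05, 7 of the 47 were higher and 0 lower, where 8.43% and 10.1% of all probes were. The call depended on the controls. Without the non-target array 3 genes passed (PCNA, RPA1 and CCNE2), without the empty-vector array 4 passed (ORC6, PRIM1, PCNA and RPA1), and with normexp 1 passed (PCNA). These are 6.38%, 8.51% and 2.13% of the 47, below the shares of all probes that passed in the same fits (16.8%, 16.4% and 4.25%). The lone control is then assumed to vary like the shRNA arrays.

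PCNA, the sliding clamp, had the smallest p of the family. Its levels were 2.11 and 2.18 with empty vector and non-target shRNA, 1.90 and 2.24 with PARN and CNOT6 shRNA, and 2.52, 2.62 and 2.55 with CNOT6L, CNOT7 and NOC shRNA. The row 2 arrays lay close together, and all exceeded the other 4 arrays. The difference from the controls was 0.42 ± 0.09 (SE, limma, 3 arrays against 2, adjusted p = 0.0824). The other PCNA probe gave differences of 0.42, 0.63 and 0.54 with CNOT6L, CNOT7 and NOC shRNA and -0.25 with PARN shRNA. So both probes placed PARN lowest and row 2 highest.

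RPA1, the large subunit that grips single-stranded DNA, had a like pattern on its brighter probe. Its levels were 3.24 and 3.21 with empty vector and non-target shRNA, 3.04 and 3.02 with PARN and CNOT6 shRNA, and 3.74, 3.60 and 3.56 with CNOT6L, CNOT7 and NOC shRNA. Row 1 shRNAs were under the controls and row 2 shRNAs over them, with a difference of 0.41 ± 0.09 in row 2 (SE, limma, adjusted p = 0.0894). Its other probe was uncertain, since its controls were 1.75 apart and the row 2 arrays lay between them. CCNE2, cyclin E2, which drives entry into S phase with CDK2, had levels of -0.52 and -0.31 with empty vector and non-target shRNA, -0.60 and -0.39 with PARN and CNOT6 shRNA, and 0.11, -0.03 and 0.19 with CNOT6L, CNOT7 and NOC shRNA. The row 2 difference was 0.51 ± 0.13 (SE, limma, adjusted p = 0.110), the largest of the family, and the other CCNE2 probe gave 0.43, 0.50 and 0.50. CNOT6 shRNA lay between the controls.

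PRIM1, the catalytic subunit of primase, had levels of -0.37 and -0.46 with empty vector and non-target shRNA, -0.64 and -0.25 with PARN and CNOT6 shRNA, and 0.02, 0.16 and -0.06 with CNOT6L, CNOT7 and NOC shRNA. PARN was the lowest array and CNOT7 the highest, 0.80 apart. ORC6, the smallest origin recognition subunit, had levels of 2.33 and 2.25 with empty vector and non-target shRNA, 2.08 and 2.10 with PARN and CNOT6 shRNA, and 2.58, 2.63 and 2.68 with CNOT6L, CNOT7 and NOC shRNA. MCM6, a helicase subunit, had levels of 2.40 and 2.33 with empty vector and non-target shRNA, 2.12 and 2.16 with PARN and CNOT6 shRNA, and 2.66, 2.80 and 2.54 with CNOT6L, CNOT7 and NOC shRNA. FEN1, the nuclease that trims Okazaki fragments, had levels of 1.19 and 1.03 with empty vector and non-target shRNA, 1.04 and 1.08 with PARN and CNOT6 shRNA, and 1.34, 1.56 and 1.44 with CNOT6L, CNOT7 and NOC shRNA. In ORC6 and MCM6 both row 1 shRNAs were under the controls and all row 2 shRNAs over them, while in FEN1 the row 1 shRNAs lay between the controls. Row 2 differences were 0.46 ± 0.12 for PRIM1, 0.34 ± 0.09 for ORC6, 0.30 ± 0.11 for MCM6 and 0.34 ± 0.11 for FEN1 (SE, limma, adjusted p of 0.116, 0.118, 0.196 and 0.181).

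**Figure D3:**
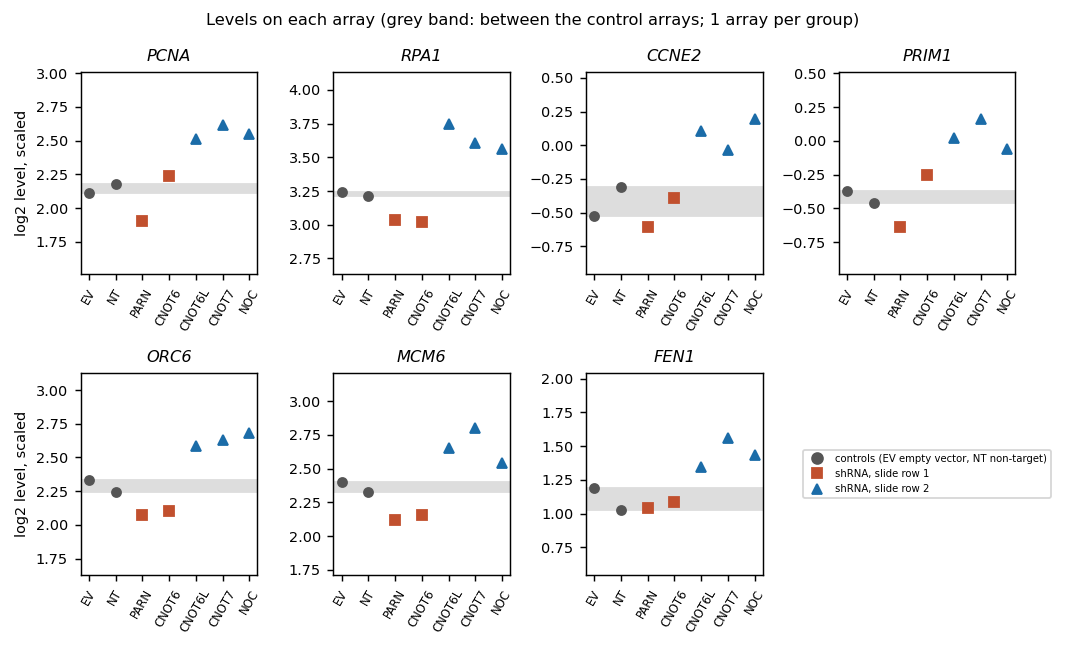
Scaled log2 levels of the 7 genes with an unadjusted limma p under 0.05 in slide row 2, all panels spanning the same 1.5 log2 units; the grey band joins both controls. Every triangle (row 2) lies above the band, and the PARN square lies below it in all panels but FEN1, where it is at 1.04.

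RFC3, a subunit of the clamp loader, singled out CNOT7 shRNA. Its levels were -0.36 and -0.16 with empty vector and non-target shRNA, -0.23 and -0.40 with PARN and CNOT6 shRNA, and -0.06, 0.32 and -0.20 with CNOT6L, CNOT7 and NOC shRNA. Its other probe gave 0.36 with CNOT6L and 0.37 with CNOT7 shRNA, so the probes differed on whether CNOT7 stood apart. GINS1, read from 1 spot, had levels of 0.03 and -0.08 with empty vector and non-target shRNA, -0.15 and -0.07 with PARN and CNOT6 shRNA, and 0.05, -0.47 and 0.08 with CNOT6L, CNOT7 and NOC shRNA. Here CNOT7 was the lowest array, 0.45 under the control mean. GMNN, geminin, which blocks relicensing, had levels of 1.99 and 2.25 with empty vector and non-target shRNA, 1.84 and 2.12 with PARN and CNOT6 shRNA, and 2.28, 1.83 and 2.25 with CNOT6L, CNOT7 and NOC shRNA. It was low with CNOT7 and PARN shRNA and near the non-target level elsewhere in row 2.

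Some genes did not share the upward lean of row 2. UHRF1, which guides DNA methylation to new strands, had levels of 0.53 and 0.82 with empty vector and non-target shRNA, 0.44 and 0.51 with PARN and CNOT6 shRNA, and 0.44, 0.34 and 0.54 with CNOT6L, CNOT7 and NOC shRNA. CCNE1, cyclin E1, had levels of 1.49 and 1.83 with empty vector and non-target shRNA, 1.31 and 1.33 with PARN and CNOT6 shRNA, and 1.35, 1.53 and 1.63 with CNOT6L, CNOT7 and NOC shRNA. Both were below the control mean on all 5 shRNA arrays, but the empty-vector array lay within their spread. The other UHRF1 probe, read from 1 spot, reversed the controls, with -1.35 for empty vector and -1.60 for non-target shRNA. There PARN shRNA lay between the controls (-1.59) and CNOT6 shRNA just below both (-1.63). CNOT6L, CNOT7 and NOC shRNA were also below both (-1.78, -1.67 and -1.76). LIG1, which seals Okazaki fragments, had levels of 0.51 and 0.47 with empty vector and non-target shRNA, 0.47 and 0.36 with PARN and CNOT6 shRNA, and 0.31, 0.49 and 0.42 with CNOT6L, CNOT7 and NOC shRNA. POLE, the catalytic subunit of polymerase epsilon, had levels of -2.02 and -1.78 with empty vector and non-target shRNA, -1.94 and -2.02 with PARN and CNOT6 shRNA, and -2.18, -2.03 and -1.81 with CNOT6L, CNOT7 and NOC shRNA. In both the CNOT6L array was the lowest, at 0.18 and 0.28 below the control mean, and the other POLE probe also placed CNOT6L lowest, with controls 0.74 apart.

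Other genes were nearly level. RFC2 of the clamp loader had levels of 0.26 and 0.23 with empty vector and non-target shRNA, 0.13 and 0.11 with PARN and CNOT6 shRNA, and 0.26, 0.24 and 0.25 with CNOT6L, CNOT7 and NOC shRNA. TK1, thymidine kinase of the salvage route, had levels of 3.89 and 4.03 with empty vector and non-target shRNA, 3.98 and 3.94 with PARN and CNOT6 shRNA, and 3.87, 3.91 and 4.05 with CNOT6L, CNOT7 and NOC shRNA. MCM5 of the helicase had levels of 1.42 and 1.31 with empty vector and non-target shRNA, 1.41 and 1.31 with PARN and CNOT6 shRNA, and 1.24, 1.23 and 1.33 with CNOT6L, CNOT7 and NOC shRNA. Their ranges over the 7 arrays were 0.15, 0.18 and 0.19, the narrowest of the 47. The median SD between spots of the probe was 0.11 for RFC2, 0.04 for TK1 and 0.03 for MCM5, so the range of RFC2 was the least resolved. Among the other members of the nucleotide group, TYMS and RRM1 spanned 0.30 and 0.29.

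The higher levels of row 2 were not found in every role. In row 2 the medians of the single-strand binding and Okazaki genes were 0.23, 0.27 and 0.21 with CNOT6L, CNOT7 and NOC shRNA, those of the clamp and loader 0.14, 0.22 and 0.10, those of G1/S control 0.15, 0.27 and 0.25, and those of origin licensing 0.06, 0.05 and 0.13. Helicase activation was at 0.08, 0.14 and 0.11, and polymerases and primase at 0.01, 0.04 and 0.09. The nucleotide genes were at -0.05, 0.05 and 0.08, and the chromatin copying genes at -0.05, -0.05 and -0.07. The roles with 3 genes were split. In G1/S control the median was E2F1, with CCNE2 at 0.52, 0.39 and 0.61 and CCNE1 at -0.30, -0.13 and -0.03. In chromatin copying it was CHAF1A, with CHAF1B at 0.14, 0.22 and 0.37 and UHRF1 at -0.23, -0.33 and -0.13. With PARN shRNA every role had a median below 0, from -0.04 for polymerases and primase to -0.19 for G1/S control and chromatin copying. No difference between roles was tested.

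Within slide row 2 each array was also set against the other 2, which avoids the row but has no control. None of the 47 was 2-fold from both row mates for CNOT6L, CNOT7 or NOC shRNA, where 0.671%, 0.275% and 0.363% of all genes were. With CNOT6L shRNA 24 of 47 were lower than both row mates and 7 higher (27.9% and 37.1% of all genes), and the median was -0.07. With CNOT7 shRNA 21 were higher and 13 lower (31.4% and 36.9%), and with NOC shRNA 19 and 10 (31.5% and 35.2%). Medians were 0.02 and 0.04.

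Across all 7 arrays, 5 shRNAs against 2 controls, limma called none of the 47 and 0 of 38005 probes, with 729 probes higher (1.92%) and 691 lower (1.82%) at an unadjusted p under 0.05 and 0 of the 47 among them. Of the 47 differences, 28 were above 0 and 19 below, against 18439 and 19566 of all 38005 probes. The smallest p values belonged to UHRF1 (-0.22 ± 0.13), CCNE1 (-0.23 ± 0.14) and CDC6 (0.25 ± 0.18; SE, limma, adjusted p = 1.0 for each). With slide row as a term, which leaves PARN and CNOT6 against the controls, the adjusted count stayed at 0 of the 47 and 0 of 38005 probes. At an unadjusted p under 0.05 there were 3 of the 47. The share of all probes at that p was not counted in this fit, so the 3 cannot be judged. A p that misses the threshold in 7 arrays does not show that levels were equal.

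The rest of the replication pathway was given by a further list of 43 genes, such as ORC2 to ORC5, CDC7, CDK2, the other E2F genes and checkpoint and fork factors. With PARN shRNA 18 of 43 (41.9%) were lower than both controls and 8 (18.6%) higher, near the 32.1% and 22% of all genes, and the median was -0.05. In row 2, 10 (23.3%) were above both controls on all 3 arrays and 5 (11.6%) below, against 18% and 20.6% of all genes, with medians of 0.00, 0.10 and 0.03. The only 2-fold call of this list was CDK2, the partner of cyclin E, lower with CNOT6 shRNA. CDK2 levels were -2.58 and -2.43 with empty vector and non-target shRNA, -2.62 and -3.80 with PARN and CNOT6 shRNA, and -2.49, -2.28 and -2.64 with CNOT6L, CNOT7 and NOC shRNA. CNOT6 shRNA stood alone, 1.30 under the control mean, and no other array was 2-fold from a control.

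Genes of mitosis, a later phase of the cycle, lay on the other side of the controls in row 2. Of 24 measured, 0 were above and 19 (79.2%) below both controls on all 3 arrays, against 18% and 20.6% of all genes, with medians of -0.32, -0.26 and -0.33. By limma 14 of 24 were lower at an unadjusted p under 0.05, against 10.1% of all probes, and 1, CDC20, passed the adjusted threshold (adjusted p = 0.0467). CDC20, which activates the anaphase-promoting complex, had levels of 3.09 and 3.16 with empty vector and non-target shRNA, 3.01 and 2.89 with PARN and CNOT6 shRNA, and 2.51, 2.49 and 2.51 with CNOT6L, CNOT7 and NOC shRNA. With PARN shRNA the mitosis median was -0.12, and 16 of 24 were lower than both controls and 4 higher, against 32.1% and 22% of all genes. With CNOT6 shRNA, also in row 1, the median was -0.20, and 18 of 24 were lower and 3 higher, against 28.6% and 34.5%. Lower mitosis mRNAs were thus not particular to row 2. By limma over all 5 shRNAs against 2 controls, 24 of 24 differences were below 0, against 19566 of all 38005 probes. At an unadjusted p under 0.05, 7 of 24 were lower, against 1.82% of all probes. The difference between the replication and mitosis lists was not tested, and slide row cannot be told apart from silencing in row 2 here either.

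**Figure D4:**
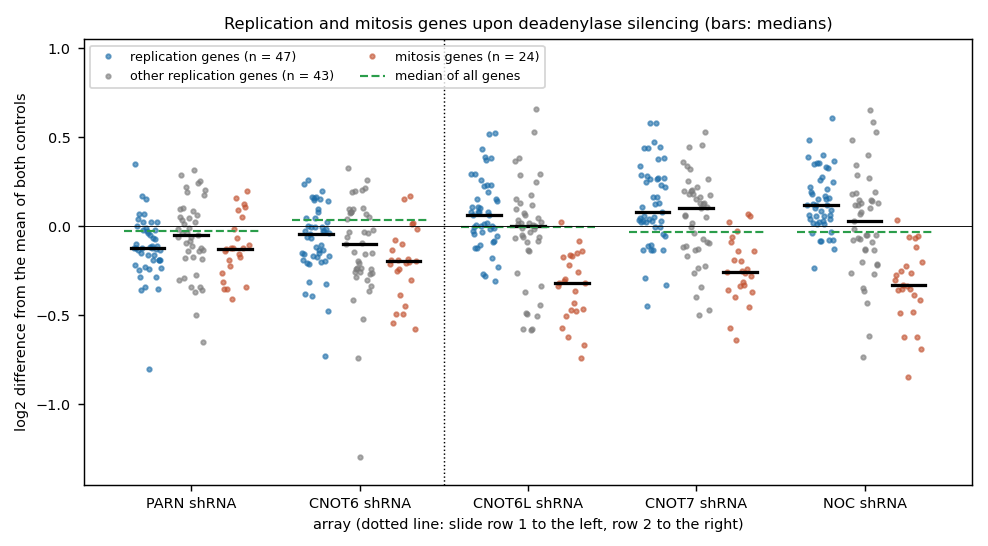
Each point is 1 gene, its log2 difference from the mean of both controls with 1 shRNA; bars are medians of 47 replication genes, 43 other replication genes and 24 mitosis genes, and the dashed line is the median of all genes. In slide row 2 replication medians are 0.06 to 0.12 and mitosis medians -0.33 to -0.26, while with PARN shRNA both are -0.12. With CNOT6 shRNA they are -0.04 and -0.20.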

How the data were processed

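Total RNA of 7 NCI-H520 cultures was hybridised to single-colour arrays, 1 per group, grouped by sample title. Per the file headers, the authors extracted each image with Agilent Feature Extraction 10.7.3.1; the NOC image was extracted on another day. The deposited scanner files hold intensity per spot. The deposited series table holds log2 values shifted per array and centred per probe, and served as an alternative.

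Main values were log2 processed signal minus the 75th percentile of the array. Control and outlier spots were left out and spots of a probe averaged. Accessions were named through a RefSeq table (GRCh38.p14, 24826 probes, 19062 symbols), and the CNOT6 probe through its label accession with a leading zero restored. A dim side was set to the lowest signal above background on its array. limma 3.58.1 in R 4.3.3 (lmFit, eBayes with trend, two-sided) used probes above background on at least 2 arrays. Calls and fits were tested on simulated data.

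The genes, lists and tests were chosen with earlier results of these data known. Values on every array are printed for genes called, for the 3 highest and lowest per shRNA, the 3 smallest p per limma fit and the 3 widest and narrowest ranges; ORC6, MCM6 and FEN1 were added for their p. Nothing says that arrays are independent cultures, and their number limits the precision.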

Additional observations from a re-analysis of the deposited data

How the results depend on the processing

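No paired analysis was possible because each group had 1 array and the labels give all of them the same replicate number. The 2-fold counts of 0 held under quantile normalization, normexp, the series table, the filters and the mean over probes for each shRNA. The exceptions were PARN shRNA, with 1 gene at 1.5-fold, 1 with no scaling and 0 to 1 against a lone control, and CNOT6 shRNA, with 9 with no scaling, since that array was the dimmest. With no scaling the medians became -0.45, -1.05, 0.46, 0.62 and 0.34 for PARN, CNOT6, CNOT6L, CNOT7 and NOC shRNA, as all genes shifted by -0.33, -1.01, 0.40, 0.54 and 0.22. The median for CNOT6L shRNA was 0.017 with quantile normalization and 0.10 in the series table, and 0.030 to 0.054 against a lone control. For CNOT7 shRNA it was 0.084 to 0.141 against a lone control. normexp moved the median of all genes for CNOT6 shRNA by 0.12. In slide row 2 limma called 1 gene with normexp and 0 to 4 when 1 array was left out, while the probes called went from 126 to 1611 with normexp and to 6133 and 6358 without the empty-vector or non-target array, a larger share than of the 47. The count of 17 genes above both controls in row 2 was 14 to 21 under other settings. It was 19 to 25 with 1 array left out, a looser rule that more genes meet by construction. The share of all genes is not given for these settings, so the larger counts do not show a stronger lean. Counts outside both controls grow by construction against a lone control; the lower counts of 7 and 4 for CNOT7 and NOC shRNA became 13 to 14 and 11, and the higher count of 4 for PARN shRNA became 9 to 11. Of 1040 values of single genes, 851 moved by no more than the gap between the controls. The cause of the other changes was not tested.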
